A study of Mus musculus with 24 samples.

Results

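The Slc25 family of mitochondrial solute carriers was followed through RNA, ribosome footprints and footprints per RNA in mouse hippocampal slices. Members were all rows of the 2 count tables whose symbol began with Slc25a and a number, which gave 47 of the 23845 genes in the RNA table and the same 47 of the 20436 genes in the footprint table. Slices came from male mice of 28 to 42 days on a C57BL/6J background, either wild type (WT) or littermates with 1 functional copy of Tsc2 in every cell (Tsc2+/-), a germline deletion made with CMV-Cre and a floxed Tsc2 allele. Treatment lasted 5 min with vehicle (artificial cerebrospinal fluid) or with 100 µM DHPG, which activates mGluR1 and mGluR5, and every group then received cycloheximide to hold ribosomes in place. The 4 groups (WT vehicle, WT DHPG, Tsc2+/- vehicle and Tsc2+/- DHPG) had 3 libraries each for poly(A) RNA and for ribosome-protected fragments (RPFs, or footprints), 24 in all, and each library held pooled slices of several mice with CA3 cut away.

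Slc25 proteins sit in the inner mitochondrial membrane, with a few exceptions in other membranes, and move nucleotides, phosphate, amino acids, carboxylates and cofactors between cytosol and matrix. Each is built from 3 related repeats that carry a short signature of proline, an acidic residue and a basic residue. In the brain the ADP/ATP and phosphate carriers feed oxidative phosphorylation. The aspartate and glutamate carriers serve glutamate metabolism and the transfer of reducing equivalents into mitochondria, and a calcium-regulated group exchanges ATP-Mg for phosphate.

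The signature was searched for in the coding sequences as a description, since a signature of the family cannot test the choice of its members. The pattern was a proline codon, any codon, an aspartate or glutamate codon, any 2 codons and a lysine or arginine codon, on the coding strand and in frame. It occurred 3 times in 27 of the 47 members (57.4%). Among all genes with a coding sequence of 798 to 2034 bases, the range of the members, it occurred at least 3 times in 97 of 10497 (0.924%). The members are included in that count. Another 12 members held it 2 times, 5 held it 1 time, and Slc25a46, Slc25a51 and Slc25a53 held no match. The examples below are from the RefSeq annotation of GRCm38.p6, read 5′ to 3′ on the coding strand, with the proline, acidic and basic codons in capitals. They show the 3 matches of Slc25a4, the ADP/ATP carrier with the most footprints, beside the matches in Slc25a23, the carrier with the most RNA, and in its relatives Slc25a24 and Slc25a25.
Slc25a4 match 1: CCGatcGAGagggtcAAA
Slc25a4 match 2: CCGctgGACtttgctAGG
Slc25a4 match 3: CCGtttGACactgttCGT
Slc25a23 match 1: CCTctgGACcgactcAAG
Slc25a23 match 2: CCCatgGAGgtgagaAGG
Slc25a24 match 1: CCTttgGATcgcctcAAG
Slc25a25 match 1: CCCctgGACagactgAAG
All 7 lie in coding exons, for Slc25a4 at chr8:46210824-46210841, chr8:46209206-46209223 and chr8:46208432-46208449 on the minus strand, and for Slc25a23 at chr17:57053796-57053813 and chr17:57053232-57053249 on the minus strand. The match shown for Slc25a24 is at chr3:109156976-109156993 on the plus strand and that for Slc25a25 at chr2:32419060-32419077 on the minus strand. The other match in Slc25a24 and in Slc25a25 crosses an exon junction and is not shown. Slc25a23 (chr17:57043711-57059909, minus strand) has 5 coding isoforms in RefSeq. It lies on the same chromosome as Tsc2, as do Slc25a27 and Slc25a41.

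Several carriers have copies elsewhere in the genome, which bears on reads that were kept only when they mapped to 1 place. Every 28-base window of each coding sequence, about the length of a footprint, was looked up in GRCm38.p6. No window was found elsewhere for 40 members, and none was shared between members. In Slc25a5, the other main ADP/ATP carrier, 92.7% of the 28-base windows and 57.1% of the 60-base windows occurred again elsewhere, in Slc25a36 80.2% of the 28-base windows did, in Slc25a40 43.5%, in Slc25a37 19.3%, in Slc25a51 14.1%, in Slc25a3 13.2% and in Slc25a13 0.772%. Slc25a4 and Slc25a5 were identical at 695 of 897 coding bases (77.5%). The stretch below, coding bases 140 to 199 of both genes, shows how their letters keep them apart while a copy on another chromosome matches Slc25a5 exactly, with capitals at the 13 bases that differ between Slc25a4 and Slc25a5.
Slc25a5: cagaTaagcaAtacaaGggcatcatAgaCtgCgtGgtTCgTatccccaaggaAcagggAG
Slc25a4: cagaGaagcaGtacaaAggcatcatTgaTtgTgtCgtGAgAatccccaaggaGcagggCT
Copy of Slc25a5: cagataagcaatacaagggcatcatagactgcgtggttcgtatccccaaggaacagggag
The Slc25a5 stretch lies in a coding exon at chrX:36796871-36796930 on the plus strand, that of Slc25a4 in a coding exon at chr8:46209421-46209480 on the minus strand, and the copy at chr1:79923228-79923287 on the minus strand. Levels of the 7 carriers with windows found elsewhere, and above all of Slc25a5 and Slc25a36, are therefore uncertain.

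RNA libraries held 14801679 to 24067838 counts and footprint libraries 5296006 to 13613673. Counts were scaled to CPM, counts relative to each library's total, within each assay with TMM, a scaling that leaves most genes level between libraries. Tsc2, the gene altered in the mice, was at 186 to 214 CPM of RNA in WT and 128 to 137 CPM in Tsc2+/-, and at 123 to 146 and 76.4 to 84.4 CPM of footprints. By the study's methods the 3 libraries of a group are biological replicates, each from its own pool of mice. Footprint counts of replicates 2 and 3 were nearly all even (97.9% to 98.5% of non-zero counts, against 48.2% to 49.0% in replicate 1), so the number of fragments behind a printed footprint count may be smaller than the count in those libraries, for a reason that was not tested. The tests were edgeR quasi-likelihood F tests on all genes, with Benjamini-Hochberg adjustment across every gene tested, called at an adjusted p under 0.1. Fewer cells of a type and less RNA per cell cannot be told apart in these bulk samples.

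A filter on low counts kept 40 members among the 14516 genes tested for RNA and 38 among the 12877 tested for footprints, and the same 38 among the 12785 tested for footprints per RNA. Slc25a2, Slc25a21, Slc25a31, Slc25a41, Slc25a43, Slc25a48 and Slc25a54 were left out in RNA, where none had more than 8 counts in a library. Slc25a48 and Slc25a54 were at 0 in all 12 RNA libraries. Slc25a45 and Slc25a47 were also left out in footprints, where they had at most 10 and 4 counts. Slc25a41, another ATP-Mg/phosphate carrier, had at most 5 RNA counts and no footprint in any library.

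Basal levels were compared between members in WT vehicle, as CPM per kb of transcript for RNA and CPM per kb of coding sequence for footprints. RNA and footprints put different carriers first. Slc25a23, the calcium-regulated ATP-Mg/phosphate carrier, had the highest RNA at 303 CPM per kb, 19.8% of the summed RNA level of the family, and ranked 11 of 47 in footprints at 47.2 CPM per kb, 1.24% of the summed footprint level. Slc25a4, an ADP/ATP carrier, followed in RNA at 264 CPM per kb and was first in footprints at 1003. Slc25a3, the phosphate carrier, had 209 CPM per kb of RNA and 802 of footprints, and Slc25a5 had 145 and 673. Slc25a22, a glutamate carrier, came next in both, with 120 CPM per kb of RNA and 288 of footprints. Slc25a23 was the member with the highest RNA per kb in 12 of 12 RNA libraries.

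By role, the adenine nucleotide and phosphate carriers made up 40.4% of the family's RNA per kb and 65.3% of its footprints per kb. The ATP-Mg/phosphate carriers made up 21.5% of RNA and 2.19% of footprints. Aspartate and glutamate carriers took similar parts of both, 13.4% of RNA and 13.3% of footprints, as did the carriers of nucleotides and cofactors (7.03% and 6.27%) and of di-, tri- and oxodicarboxylates (5.06% and 4.68%). The carriers of glycine and branched-chain amino acids had 4.21% of RNA and 1.51% of footprints, the glutathione carriers 2.25% and 0.585%, and the iron carriers 1.11% and 0.215%. The uncoupling protein-like carriers had 1.62% and 2.19%, the outer membrane member Slc25a46 1.74% and 2.28%, the carriers of carnitine and basic amino acids 1.11% and 1.03%, and members with no role stated 0.560% and 0.415%.

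**Figure D1:**
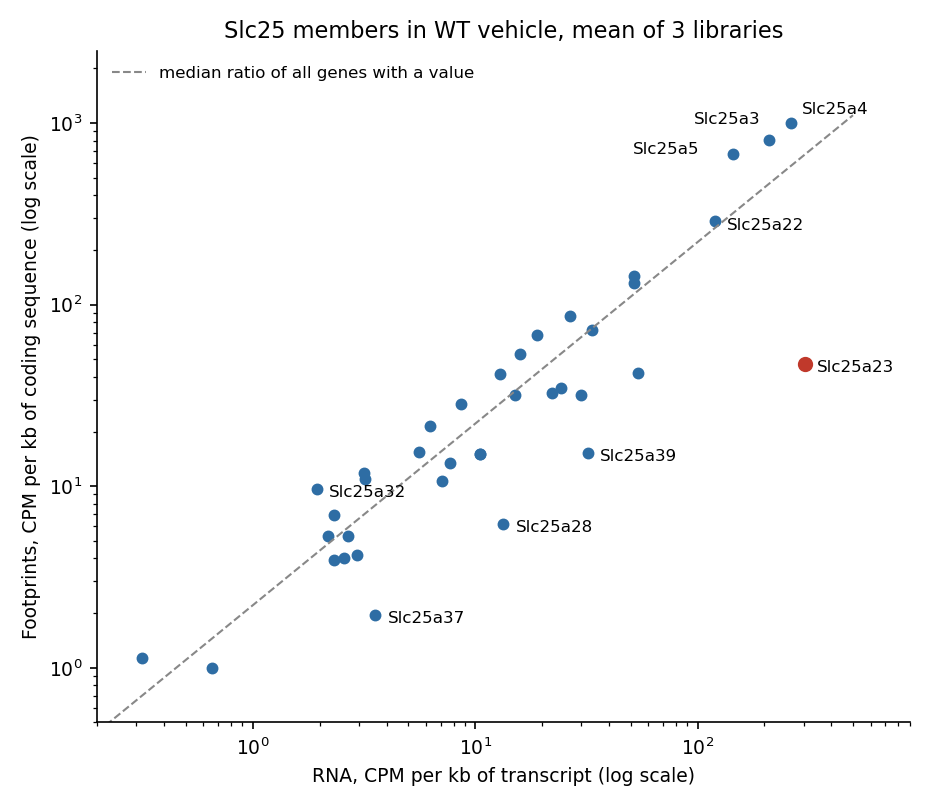
RNA level (x axis, CPM per kb of transcript) against footprint level (y axis, CPM per kb of coding sequence) of the 38 members tested in both assays, each point the mean of 3 WT vehicle libraries on log axes. The dashed line marks the median ratio of all genes, and Slc25a23 (red, 303 against 47.2) lies far under it while Slc25a3, Slc25a4 and Slc25a5 lie above it.

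Footprints per RNA, the ratio of the 2 levels per kb in library pairs of the same number, gave a log2 median of 1.18 over the 38 members in WT vehicle (quartiles 0.52 and 1.74). Over the 12405 genes with a value the log2 median was 1.14 (quartiles 0.40 and 1.85), and 19 of the 38 members lay above it. Both levels are scaled within their assay, so the zero of this scale is arbitrary and the position among genes is what can be read. Without the 6 members that had at least 10% of their 28-base windows elsewhere, the log2 median was 1.08 over 32 members, 15 of them above the median of all genes. As a group the carriers thus sat at the middle of the transcriptome, with a few members far out.

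Slc25a23 stood lowest. Its log2 footprints per RNA were -2.55, -2.97 and -2.54 in the 3 WT vehicle pairs (-2.69 ± 0.24, SD), or 0.155 footprints per RNA, which placed it at rank 20 from the lowest of 12405 genes. It was the lowest member in 12 of 12 library pairs over all groups, at a percentile of 0.0887 to 0.395 among all genes in each pair, and the gap to the next member was 1.54 on the log2 scale. These values rest on 332 to 884 footprint counts, with the limit on even counts given above, and 14454 to 26548 RNA counts per library. With the median length of its isoforms in place of the longest coding one, the log2 value was -2.56. Its relatives did not share this position: Slc25a25 was at 0.52 ± 0.11, and Slc25a24 at 0.30 ± 1.25 with 2 to 34 footprint counts per library.

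The next lowest were Slc25a28 and Slc25a37, the mitoferrins that import iron, at -1.15 ± 0.35 and -0.90 ± 0.37, and between them Slc25a39, a glutathione carrier, at -1.08 ± 0.31. These 3 and Slc25a23 were in the lowest 5% of all genes. The value of Slc25a37 rests on 2 to 39 footprint counts per library, and 19.3% of its 28-base windows were found elsewhere. The order of Slc25a28, Slc25a39 and Slc25a37 was within their spread. Slc25a44, a carrier of branched-chain amino acids, was at -0.36 ± 0.12, so 5 members had fewer than 1 footprint per RNA on this scale, as did 15.9% of all genes. At the other end were Slc25a32, which carries folate and FAD, at 2.30 ± 0.20, Slc25a5 at 2.22 ± 0.13, Slc25a3 at 1.94 ± 0.05 and Slc25a4 at 1.92 ± 0.16, and these neighbours too did not differ beyond their spread, apart from Slc25a5 against Slc25a3, whose pairs did not overlap. That comparison is uncertain, since 92.7% of the 28-base windows of Slc25a5 and 13.2% of those of Slc25a3 were found elsewhere.

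**Figure D2:**
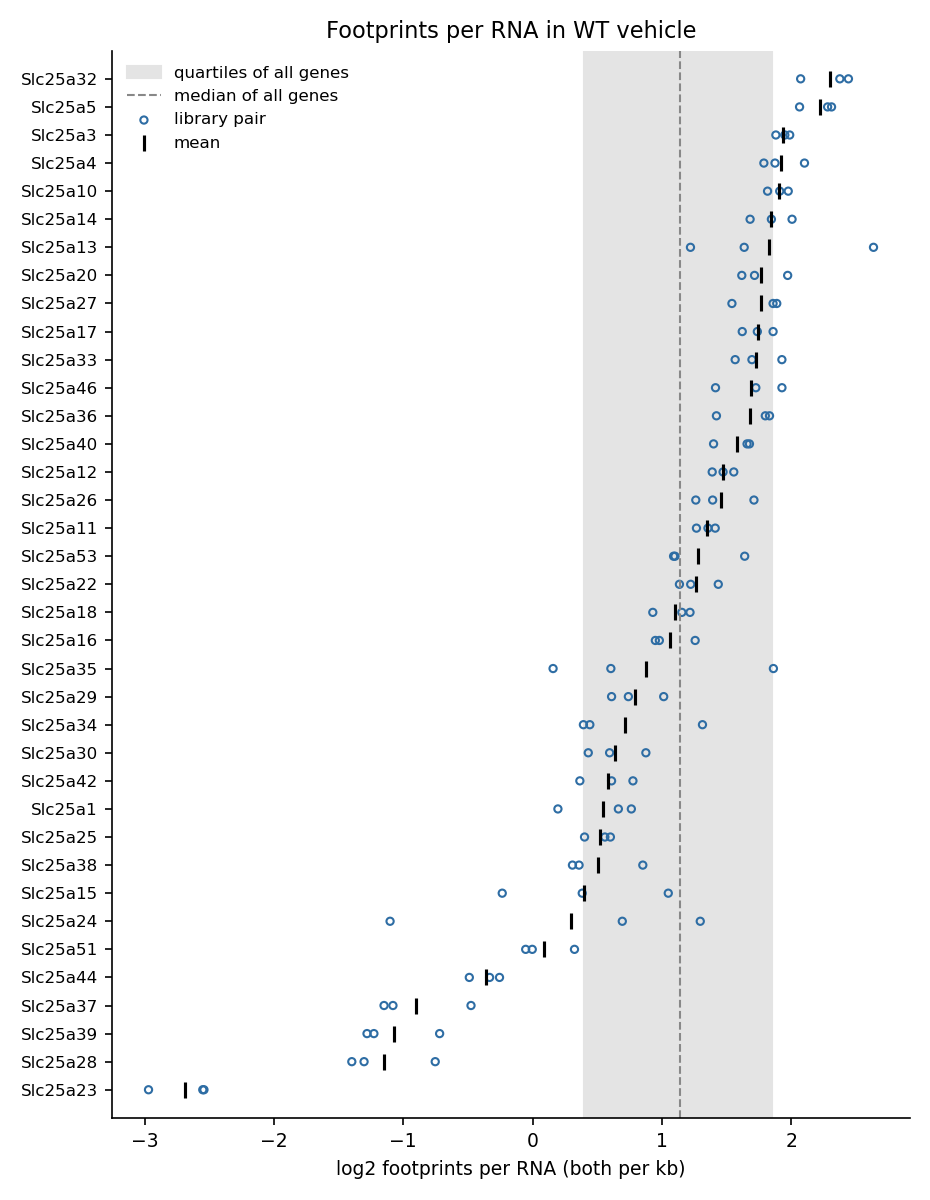
Log2 footprints per RNA (x axis, both levels per kb) of 37 members (y axis) in WT vehicle, with open circles for the 3 library pairs, a bar for their mean, the grey band for the quartiles of all genes and the dashed line for their median. Slc25a23 lies at -2.69, apart from Slc25a28, Slc25a39 and Slc25a37 at -1.15, -1.08 and -0.90, and Slc25a32 is highest at 2.30.

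Slc25a23 was followed singly across the 4 groups. The study named it among the RNAs that it called both altered in Tsc2+/- and responsive to DHPG in WT. There the study listed Slc25a23 as a target of the RNA-binding protein FMRP. It also reported low basal translation efficiency for FMRP targets as a group. The study's DHPG comparison held further WT libraries, from slices with CA3, that are not used here. The study's calls rest in part on these same samples, so the values here are not independent evidence. For DHPG in WT the tests below have fewer libraries than the study's. For genotype in vehicle the study also had 3 replicates per group and called at an FDR under 0.1. Why that call was not repeated below for Slc25a23 was not tested. Its RNA was at 971, 1094 and 996 CPM in WT vehicle, 1153, 1156 and 1120 in WT DHPG, 1188, 1082 and 1147 in Tsc2+/- vehicle, and 1142, 1188 and 1142 in Tsc2+/- DHPG. The WT vehicle group was the low one: each of its libraries lay below each WT DHPG library, and 2 of its 3 libraries lay below each Tsc2+/- vehicle library. Its footprints were at 68.2, 57.4 and 70.3 CPM in WT vehicle, 64.3, 70.8 and 59.2 in WT DHPG, 58.9, 62.0 and 68.9 in Tsc2+/- vehicle, and 58.7, 62.0 and 55.9 in Tsc2+/- DHPG. The footprint values of the groups overlapped in each of the 4 pairwise comparisons.

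The RNA of Slc25a23 differed between genotypes in vehicle by 0.16 on the log2 scale (SE 0.05), a difference that edgeR did not call (p 0.0023, adjusted p 0.772) and that 2 of 3 contrasts of same-numbered libraries showed. The difference of DHPG from vehicle in WT was also 0.16 (SE 0.05, edgeR p 0.00176, adjusted p 0.712), in 3 of 3 contrasts. Both comparisons rest on the same 3 WT vehicle libraries. In DHPG the genotypes differed by 0.02 and in Tsc2+/- the treatments differed by 0.02, at edgeR adjusted p 0.997 and 0.9998. The interaction, which tests whether the DHPG difference itself differed between genotypes, was -0.14 (SE 0.07, edgeR p 0.0468, adjusted p 0.999). WT vehicle replicate 2 had the highest Slc25a23 level of its group, so leaving it out had to widen both differences. Without it the edgeR values were 0.21 (adjusted p 0.0810) for genotype in vehicle and 0.22 (adjusted p 0.0552) for DHPG in WT. Both were called, but in each comparison this was the only 1 of 15 settings with libraries left out that gave a call.

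In footprints, no Slc25a23 difference was called. The differences were -0.04 (SE 0.09) for genotype in vehicle, -0.14 (SE 0.09) for genotype in DHPG, -0.01 (SE 0.09) for DHPG in WT and -0.10 (SE 0.10) for DHPG in Tsc2+/-, at edgeR adjusted p of 0.953 or more. In footprints per RNA all 4 differences were below 0: -0.20 (SE 0.10, p 0.0412, adjusted p 0.855) for genotype in vehicle, -0.16 (SE 0.10, p 0.0984, adjusted p 0.9998) for genotype in DHPG, -0.17 (SE 0.10, p 0.0859, adjusted p 0.620) for DHPG in WT and -0.13 (SE 0.10, p 0.199, adjusted p 0.999) for DHPG in Tsc2+/-, by edgeR. These 4 differences share the same 4 groups, so their common sign is not 4 separate results. None of the differences was called, and the groups were apart only between genotypes in DHPG, where log2 footprints per RNA were -2.88, -2.75 and -2.96 in WT and -3.001, -2.98 and -3.07 in Tsc2+/-. The sizes rested on single replicate numbers: genotype in vehicle was -0.043 without replicate 1 and -0.37 without replicate 2, DHPG in WT was -0.083 without replicate 1, -0.37 without replicate 2 and -0.058 without replicate 3, and DHPG in Tsc2+/- was -0.22 without replicate 1 and -0.039 without replicate 3, none of them called. Averaged over treatments, the genotype difference in footprints per RNA was -0.18 (SE 0.07, edgeR p 0.0104, adjusted p 0.996).

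Markers of oligodendrocytes (Mbp, Mog, Mag, Mobp and Cnp) stood high in RNA in the same comparisons. Of these 5 RNAs, 2 were higher at an unadjusted p under 0.05 in Tsc2+/- vehicle (median log2 difference 0.086) and 3 of 5 in WT DHPG (median 0.11), each against WT vehicle, and 0 were called by edgeR. In footprints 0 of the 5 markers had such a p in either comparison, with medians of 0.070 and -0.032. Their summed RNA was 2059 to 2482 CPM in WT vehicle, 2276 to 2633 in WT DHPG, 2266 to 2670 in Tsc2+/- vehicle and 2217 to 2558 in Tsc2+/- DHPG, and none was at 0. Their part in the result was not tested. Markers of CA1 pyramidal cells, the cells the slices were enriched for, had 0 of 5 RNAs at an unadjusted p under 0.05 in both comparisons. Microglia markers had 1 of 5 higher at such a p in both, and astrocyte markers 1 of 6 higher in WT DHPG. In Tsc2+/- vehicle, 1 of 5 dentate granule, 1 of 4 endothelial and 1 of 4 tested blood markers were lower. Of all genes, 4.9% (genotype in vehicle) and 6.45% (DHPG in WT) had such a p in either direction.

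**Figure D3:**
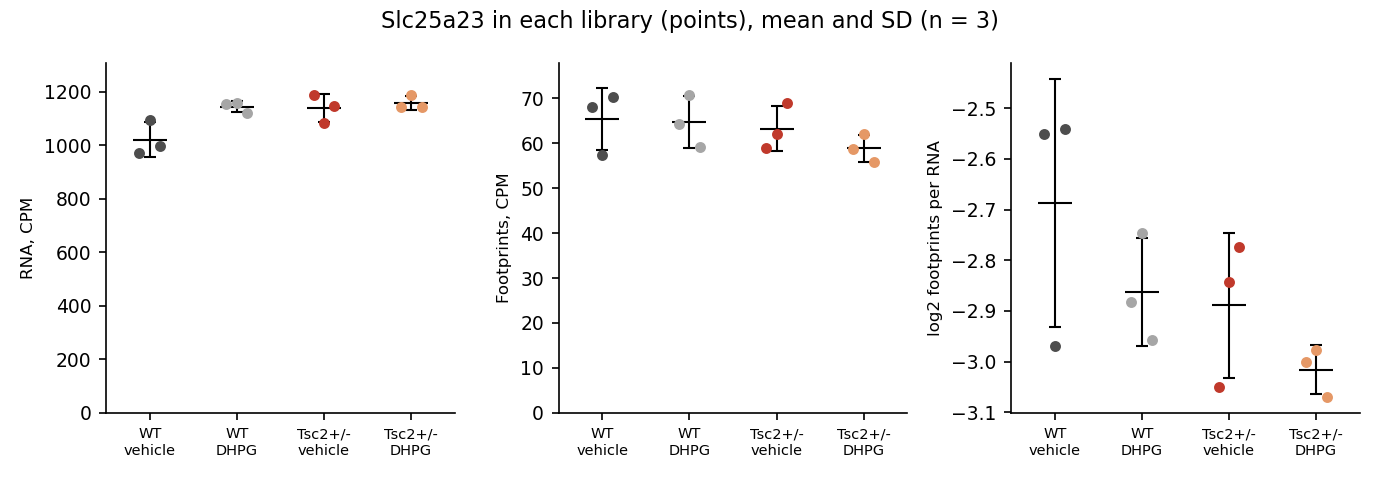
Slc25a23 in every library by group (x axis), as RNA in CPM, footprints in CPM and log2 footprints per RNA (y axes, left to right), with points for libraries or library pairs and black bars for the mean and SD (n = 3). WT vehicle RNA, at 971 to 1094 CPM, lies below WT DHPG at 1120 to 1156, while footprints of all groups overlap.

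Between genotypes in vehicle, no Slc25 RNA was called by edgeR (background 0.0896% of all genes), and DESeq2 also called 0 members. Each background given here and below is the share of all genes called by edgeR, and none is given for DESeq2. The smallest adjusted p of a member was 0.772. Slc25a23 alone was higher at an unadjusted p under 0.05 and Slc25a26 alone lower, together 5.00% of the 40 tested, against 4.9% of all genes. Log2 differences ran from -0.59 to 0.43 with a median of -0.01, where the median of all genes was -0.00. The groups did not overlap for 4 members (10%, against 8.2% of all genes), Slc25a51 higher and Slc25a26, Slc25a37 and Slc25a38 lower in Tsc2+/-.

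Slc25a26, which brings S-adenosylmethionine into mitochondria, was at 9.95, 10.4 and 12.0 CPM of RNA in WT vehicle, 8.93, 7.26 and 8.42 in WT DHPG, 8.85, 9.17 and 5.64 in Tsc2+/- vehicle and 8.06, 7.73 and 8.33 in Tsc2+/- DHPG. All 3 WT vehicle libraries were above the other 9. The log2 difference between genotypes in vehicle was -0.46 (SE 0.16, edgeR p 0.0057, adjusted p 0.882). Its footprints overlapped between groups, at 9.49, 13.5 and 12.5 CPM in WT vehicle and 11.4, 14.04 and 15.01 in Tsc2+/- vehicle. Slc25a51, the NAD carrier, was at 130, 135 and 132 CPM of RNA in WT vehicle and 141, 138 and 142 in Tsc2+/- vehicle, a log2 difference of 0.09 (SE 0.05, edgeR p 0.125, adjusted p 0.991). Slc25a32 and Slc25a53 differed by 0.15 (SE 0.16) and -0.31 (SE 0.16), at edgeR adjusted p 0.991 and 0.983.

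Slc25a37, the iron carrier known chiefly from red cell precursors, was at 15.3, 15.2 and 13.97 CPM of RNA in WT vehicle and 13.4, 12.4 and 12.8 in Tsc2+/- vehicle, a log2 difference of -0.21 (SE 0.11, edgeR p 0.0816, adjusted p 0.983). The groups did not overlap in vehicle and did overlap in DHPG (-0.15, SE 0.12, adjusted p 0.997). Blood markers stood lower in Tsc2+/- beside it: the 4 tested of 5 summed to 20.9 to 26.7 CPM in WT vehicle and 2.59 to 16.5 in Tsc2+/- vehicle, and to 16.3 to 35.2 in WT DHPG and 5.04 to 17.7 in Tsc2+/- DHPG. In RNA 1 of the 4 was at an unadjusted p under 0.05 in each treatment, and 1 was called, in DHPG. Their part in the Slc25a37 values was not tested.

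In footprints of the same comparison, edgeR and DESeq2 called 0 members (background 0.0233%). Slc25a5 and Slc25a33 were higher and Slc25a22 lower at an unadjusted p under 0.05, or 7.89% of the 38 tested against 6.55% of all genes. The median log2 difference was -0.02 (all genes -0.00), the range -0.19 to 0.58 and the smallest adjusted p 0.623. Groups did not overlap for 4 members (10.5%, against 8.29%), the 3 just named among them.

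Slc25a5 footprints were at 570, 567 and 553 CPM in WT vehicle, 612, 593 and 583 in WT DHPG, 607, 643 and 608 in Tsc2+/- vehicle and 581, 608 and 605 in Tsc2+/- DHPG. Each WT vehicle library was below the other 9. The log2 difference between genotypes in vehicle was 0.14 (SE 0.05, edgeR p 0.00965, adjusted p 0.623), and reads of this gene have the copies shown above. Slc25a22 footprints were at 276, 264 and 247 CPM in WT vehicle, 273, 267 and 265 in WT DHPG, 236, 241 and 246 in Tsc2+/- vehicle and 277, 272 and 266 in Tsc2+/- DHPG. Here the Tsc2+/- vehicle group was the low one, at a log2 difference of -0.12 from WT vehicle (SE 0.06, edgeR p 0.0436, adjusted p 0.749). Slc25a33, a pyrimidine nucleotide carrier, had footprints at 26.5, 26.3 and 24.3 CPM in WT vehicle and 26.6, 29.1 and 38.9 in Tsc2+/- vehicle, 0.27 on the log2 scale (SE 0.13, edgeR p 0.0439, adjusted p 0.749), with replicate 3 of Tsc2+/- vehicle well above the rest. Slc25a16 differed by -0.18 (SE 0.11, edgeR adjusted p 0.800).

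In footprints per RNA between genotypes in vehicle, 0 members and 0 of all genes were called by edgeR (background 0.0%), and DESeq2 called 0 members. Slc25a5 and Slc25a26 were higher and Slc25a22 and Slc25a23 lower at an unadjusted p under 0.05, 10.5% of the 38 members against 5.73% of all genes, and the median was 0.00. Groups did not overlap for 3 members (7.89%, against 7.81%). Slc25a5 was at log2 footprints per RNA of 2.28, 2.31 and 2.06 in WT vehicle and 2.39, 2.45 and 2.58 in Tsc2+/- vehicle, a difference of 0.25 (SE 0.08, edgeR p 0.00326, adjusted p 0.804). Slc25a26 differed by 0.64 (SE 0.23, edgeR p 0.00789, adjusted p 0.804) with overlapping groups. Slc25a16 differed by -0.22 (SE 0.13, edgeR adjusted p 0.872) without overlap.

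Between genotypes in DHPG, edgeR and DESeq2 called 0 members in RNA (background 0.0482%), in footprints (0.0155%) and in footprints per RNA (0.0%). At an unadjusted p under 0.05 the RNAs of Slc25a27 (0.22, SE 0.10), an uncoupling protein-like carrier, and Slc25a38 (0.23, SE 0.11), the glycine carrier of haem synthesis, were higher, 5.00% of members against 4.64% of all genes, both at edgeR adjusted p 0.997. Slc25a11, the oxoglutarate carrier, differed by -0.11 (SE 0.06, edgeR adjusted p 0.997). In footprints Slc25a38 alone had such a p, 2.63% of members against 4.13% of all genes, and in footprints per RNA again Slc25a38 alone, 2.63% against 3.0%. The medians of members were 0.01 for RNA, 0.01 for footprints and -0.00 for footprints per RNA. Groups did not overlap for 2 RNAs (5.00%, against 9.44%), 2 footprint levels (5.26%, against 10.1%) and 4 values of footprints per RNA (10.5%, against 9.36%).

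Slc25a38 RNA was at 17.7, 18.4 and 20.1 CPM in WT vehicle, 15.7, 15.95 and 17.6 in WT DHPG, 17.4, 16.7 and 16.1 in Tsc2+/- vehicle and 17.2, 21.4 and 19.1 in Tsc2+/- DHPG. Its footprints were at 16.5, 11.8 and 13.3 CPM, at 14.98, 20.99 and 16.2, at 12.5, 11.7 and 13.8, and at 12.4, 12.3 and 14.9 in the same order of groups. On average RNA was lowest and footprints were highest in WT DHPG, and in footprints each WT DHPG library lay above each Tsc2+/- DHPG library. The footprint difference between genotypes in DHPG was -0.38 (SE 0.16, edgeR p 0.0271, adjusted p 0.9995), and that of footprints per RNA -0.60 (SE 0.19, edgeR p 0.00307, adjusted p 0.9998). Its footprint counts ran from 66 to 206 per library. Slc25a1, the citrate carrier, and Slc25a30, an uncoupling protein-like carrier, had higher footprints by 0.20 (SE 0.11) and 0.45 (SE 0.34), both at edgeR adjusted p 0.9995. In footprints per RNA, Slc25a35 and Slc25a14 differed by 0.51 (SE 0.35) and 0.15 (SE 0.12) and Slc25a10, the dicarboxylate carrier, by -0.42 (SE 0.21), all at edgeR adjusted p 0.9998.

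Dentate granule markers also stood lower in Tsc2+/- in this comparison. Of 5 markers, 4 RNAs (median log2 difference -1.27) and 5 footprint levels (median -1.09) had an unadjusted p under 0.05, and 0 were called by edgeR. They summed to 65.9 to 76.2 CPM of RNA in WT DHPG and 47.9 to 59.1 in Tsc2+/- DHPG, and none was at 0. Their part in the values of Slc25 members was not tested.

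After DHPG in WT, edgeR called 0 members in RNA (background 0.0%), in footprints (0.0311%) and in footprints per RNA (0.0469%), and DESeq2 called 0. At an unadjusted p under 0.05, the RNAs of Slc25a23 and Slc25a34 were higher and that of Slc25a26 lower, 7.50% of members against 6.45% of all genes, and no footprint level of a member had such a p, against 6.71% of all genes. In footprints per RNA 4 members had such a p, 10.5% against 9.05%, among them Slc25a26 and Slc25a38 higher and Slc25a34 lower. The medians were -0.03 for RNA, 0.04 for footprints and -0.00 for footprints per RNA, where those of all genes were -0.00, -0.00 and 0.00. Groups did not overlap for 5 RNAs (12.5%, against 10.3%), 4 footprint levels (10.5%, against 8.96%) and 5 values of footprints per RNA (13.2%, against 10.4%).

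Slc25a26 RNA differed by -0.40 after DHPG in WT (SE 0.16, edgeR p 0.016, adjusted p 0.725), without overlap. Its log2 footprints per RNA were 1.26, 1.71 and 1.39 in WT vehicle and 1.89, 2.24 and 2.18 in WT DHPG, a difference of 0.65 (SE 0.23, edgeR p 0.00654), and its adjusted p of 0.344 was the smallest of the members in this readout. The WT vehicle libraries were again the ones apart, and they are the same ones as in the genotype comparison in vehicle. Slc25a38 differed in footprints per RNA by 0.50 (SE 0.19, edgeR p 0.0132, adjusted p 0.393) with overlap, and in RNA by -0.19 (SE 0.11, edgeR adjusted p 0.815). Slc25a34 differed in RNA by 0.32 (SE 0.16, edgeR adjusted p 0.768) and in footprints per RNA by -0.72 (SE 0.33, edgeR adjusted p 0.498), on 12 to 38 footprint counts per library.

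Footprints of Slc25a5 differed by 0.08 after DHPG in WT (SE 0.05, edgeR adjusted p 0.780) and those of Slc25a26 by 0.25 (SE 0.15, edgeR adjusted p 0.781). Footprints of Slc25a30 differed by -0.64 (SE 0.34, edgeR adjusted p 0.748). Slc25a30 had 14 to 32 footprint counts per library, which leaves its fold change with the wide error given.

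After DHPG in Tsc2+/-, edgeR and DESeq2 called 0 members and edgeR 0 of all genes in RNA, footprints and footprints per RNA (background 0.0% in each). In RNA, 4 members had an unadjusted p under 0.05, Slc25a10, Slc25a18 and Slc25a53 higher and Slc25a35 lower, 10% of members against 4.32% of all genes. Slc25a10 RNA was at 10.2, 11.3 and 13.9 CPM in Tsc2+/- vehicle and 15.03, 15.1 and 16.8 in Tsc2+/- DHPG, a difference of 0.41 (SE 0.12, edgeR p 0.00152, adjusted p 0.9998) without overlap. Slc25a18, the glutamate carrier of astrocytes, differed in RNA by 0.17 (SE 0.07) and Slc25a35 and Slc25a11 by -0.49 (SE 0.19) and -0.10 (SE 0.06), each at edgeR adjusted p 0.9998. Of 6 astrocyte markers, 0 had an unadjusted p under 0.05 in RNA there (median 0.00).

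In footprints of that comparison, Slc25a16, Slc25a22 and Slc25a29 were higher at an unadjusted p under 0.05, 7.89% of members against 4.03% of all genes. Slc25a22 footprints, at the values given above, differed by 0.17 (SE 0.06, edgeR p 0.0055, adjusted p 0.9999), and each Tsc2+/- DHPG library lay above each Tsc2+/- vehicle library. Slc25a29, a carrier of basic amino acids, was at 12.7, 9.01 and 8.83 CPM of footprints in Tsc2+/- vehicle and 14.9, 17.6 and 12.7 in Tsc2+/- DHPG, 0.53 on the log2 scale (SE 0.18, edgeR p 0.00629, adjusted p 0.9999). Footprints of Slc25a37 and Slc25a53 differed by -0.71 (SE 0.49) and -0.33 (SE 0.27), both at edgeR adjusted p 0.9999. Oligodendrocyte markers stood lower beside these footprint values, 4 of 5 at an unadjusted p under 0.05 (median -0.19) with 0 called, and their part was not tested. In footprints per RNA, Slc25a16 and Slc25a29 (0.57, SE 0.22) were higher and Slc25a10 (-0.45, SE 0.22) and Slc25a53 (-0.70, SE 0.29) lower at such a p, 10.5% against 3.69%, all at edgeR adjusted p 0.999. Slc25a35 differed by 0.67 (SE 0.35, edgeR adjusted p 0.999). Groups did not overlap for 5 RNAs (12.5%, against 8.69%), 5 footprint levels (13.2%, against 9.42%) and 4 values of footprints per RNA (10.5%, against 9.98%), and the medians of members were -0.00, -0.01 and -0.01.

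**Figure D4:**
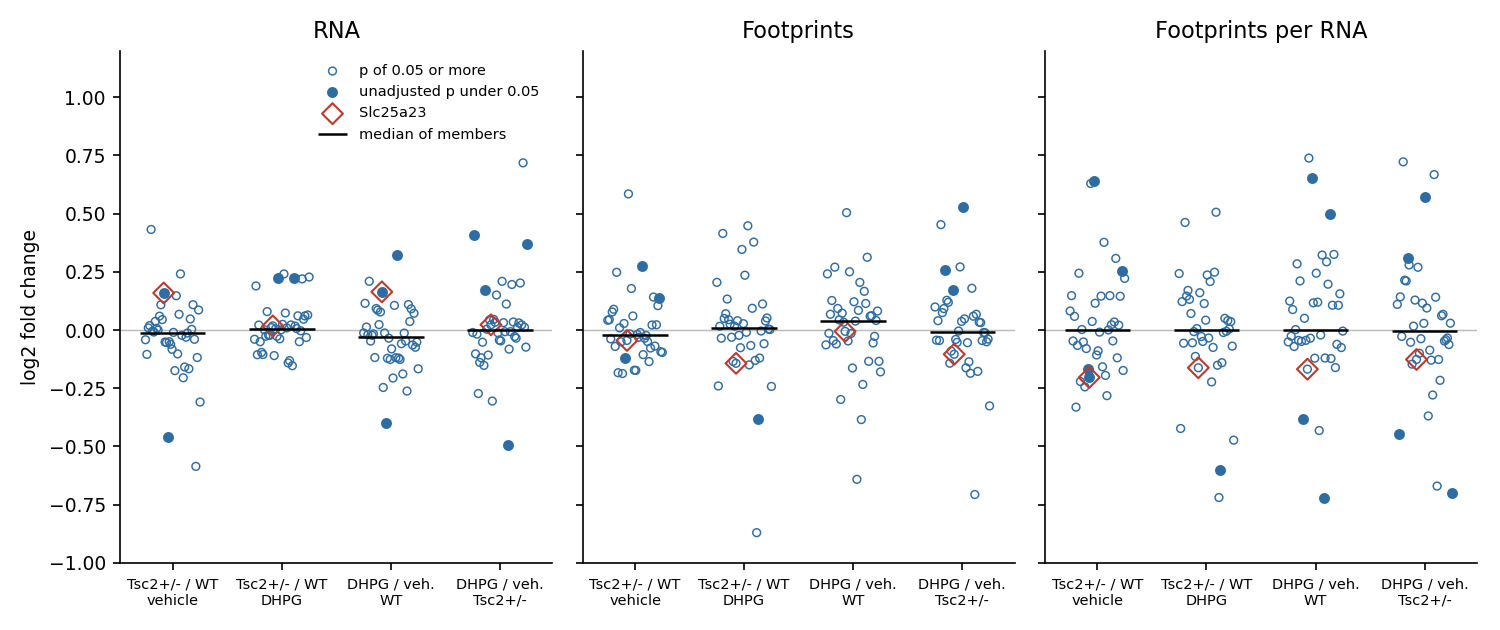
Log2 fold changes (y axis) of each tested member in 4 comparisons (x axis) for RNA, footprints and footprints per RNA, with filled points at an unadjusted p under 0.05, diamonds for Slc25a23 and black lines for the median of the members. Medians lie between -0.03 and 0.04 and no member is called.

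**Figure D5:**
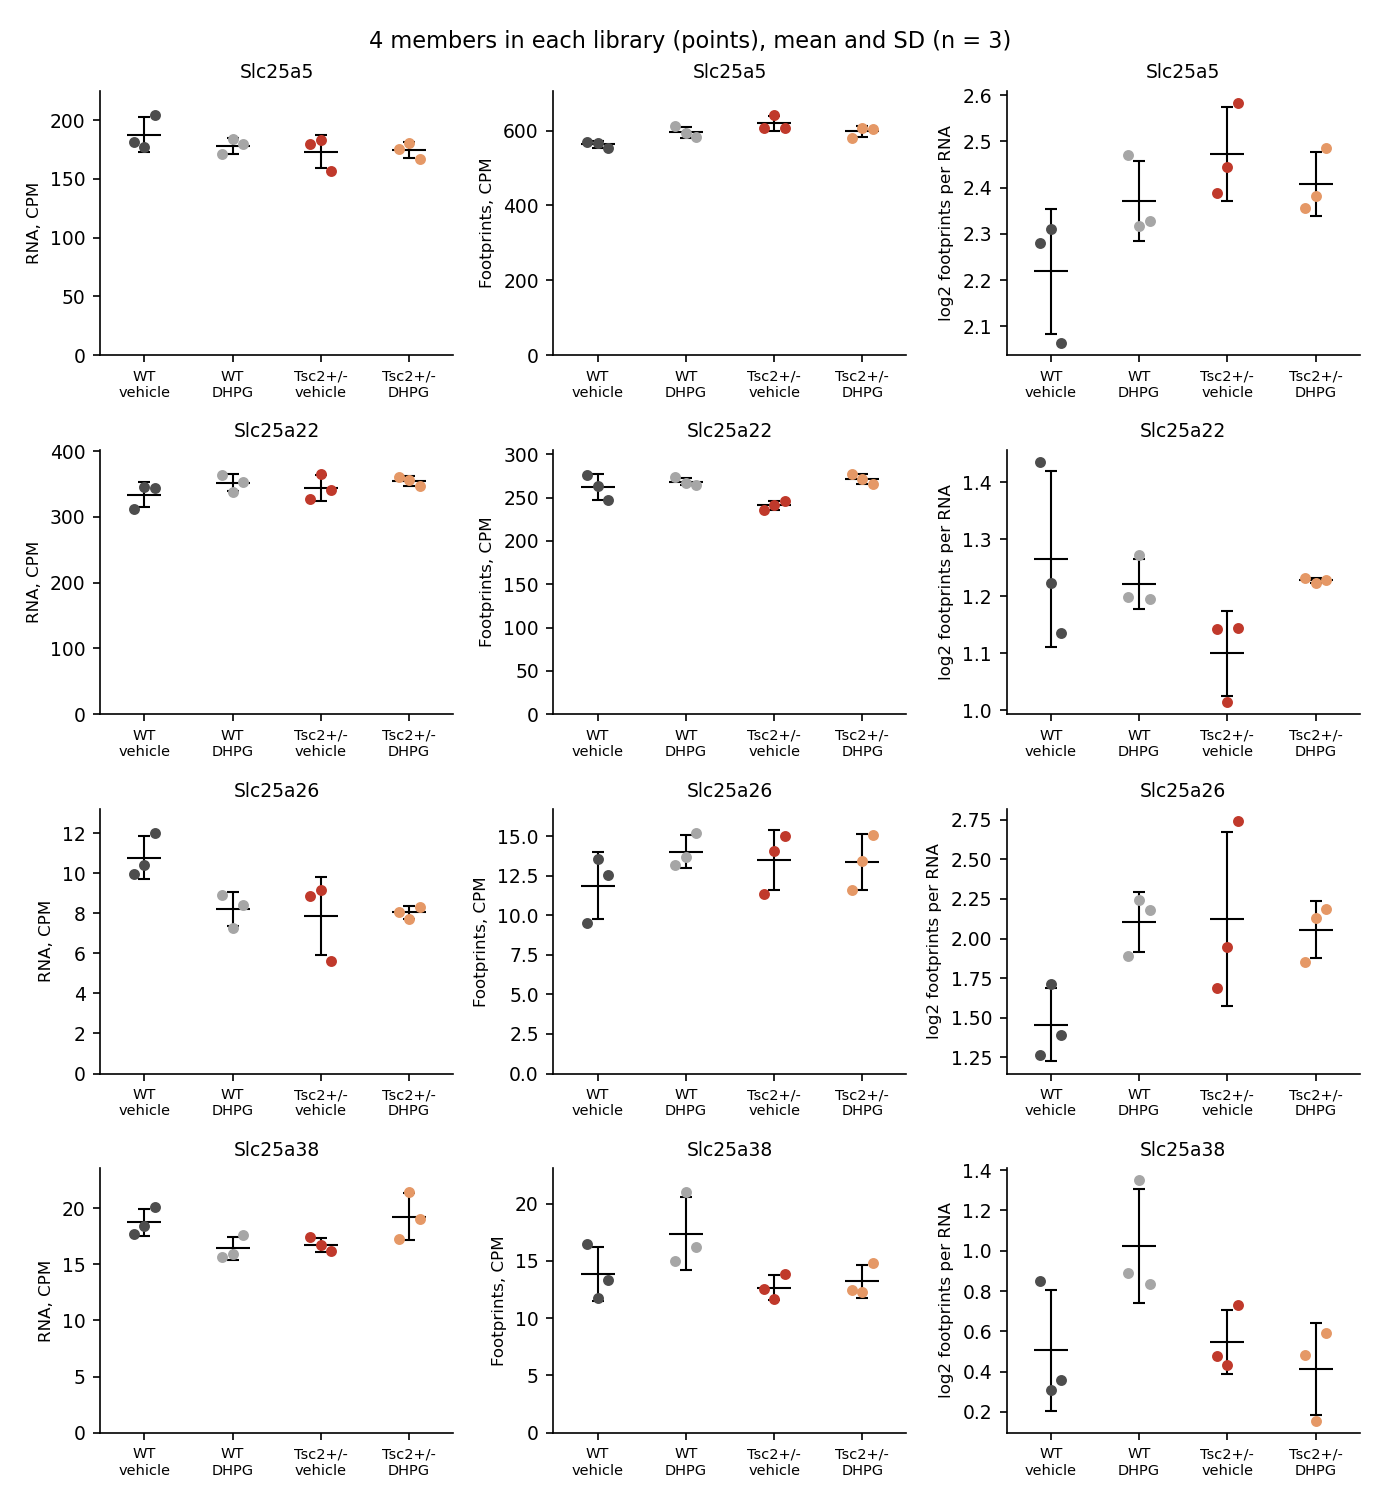
Slc25a5, Slc25a22, Slc25a26 and Slc25a38 (rows) in every library by group (x axes), as RNA in CPM, footprints in CPM and log2 footprints per RNA (y axes, left to right), with points for libraries or library pairs and black bars for the mean and SD (n = 3). Slc25a5 footprints at 553 to 570 CPM and Slc25a26 RNA at 9.95 to 12.0 CPM in WT vehicle lie apart from the other groups.

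The interaction of genotype and DHPG gave 0 called members and 0 called genes by edgeR in RNA, footprints and footprints per RNA (background 0.0% in each), and DESeq2 called 0 members. At an unadjusted p under 0.05 there were 3 members in RNA (Slc25a38 and Slc25a53 above 0 and Slc25a23 below, 7.50% against 3.47% of all genes), 0 in footprints (against 3.81%) and 2 in footprints per RNA (Slc25a26 and Slc25a38, both below 0, 5.26% against 4.08%). The interaction of Slc25a38 was 0.38 (SE 0.15, edgeR p 0.0157, adjusted p 0.999) in RNA and -0.63 (SE 0.28, edgeR p 0.0287, adjusted p 0.999) in footprints per RNA. That of Slc25a26 in footprints per RNA was -0.69 (SE 0.32, edgeR p 0.0385, adjusted p 0.999).

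Averaged over treatments, genotype gave 0 called members by edgeR and DESeq2 in RNA (background 0.227%), footprints (0.0621%) and footprints per RNA (0.0%), with 3, 1 and 3 members at an unadjusted p under 0.05 (7.50% against 6.12%, 2.63% against 6.63% and 7.89% against 4.54%). Averaged over genotypes, DHPG also gave 0 (background 0.0207%, 0.0311% and 0.0469%), with 4 members at an unadjusted p under 0.05 in RNA (10% against 7.49%) and 2 in footprints (5.26% against 6.83%). Its 7 members at an unadjusted p under 0.05 in footprints per RNA were 18.4% of the 38 tested, against 8.52% of all genes. Among these, Slc25a3 (0.11, SE 0.05), Slc25a17 (0.25, SE 0.10), Slc25a29 (0.41, SE 0.16) and Slc25a36 (0.22, SE 0.10) were higher and Slc25a23 (-0.15, SE 0.07) and Slc25a34 (-0.50, SE 0.23) lower, at edgeR adjusted p of 0.468 or more. Slc25a17, a cofactor carrier of peroxisomes, and Slc25a36, a pyrimidine nucleotide carrier, are named here after their values were seen.

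By role, the 3 tested ADP/ATP and phosphate carriers had median log2 differences after DHPG in WT of -0.07 in RNA, 0.06 in footprints and 0.12 in footprints per RNA, and 0 of the 3 had an unadjusted p under 0.05 in any of these. The 9 nucleotide and cofactor carriers had medians of -0.05, 0.08 and -0.02 there. The 4 aspartate and glutamate carriers had medians of 0.08, 0.06 and -0.05. Between genotypes in vehicle the same 3 groups had medians of -0.01, 0.04 and 0.03 in RNA, 0.02, -0.02 and 0.01 in footprints and 0.03, -0.12 and -0.11 in footprints per RNA.

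Other genes that move solutes or carriers across the mitochondrial membranes were set beside the family: 32 genes for the pyruvate carrier, calcium uniporter, outer membrane channels, sideroflexins, carrier import and uncoupling proteins. Of these, 30 were tested in RNA and 29 in footprints and in footprints per RNA, and edgeR called 0 in each of the 21 comparisons. After DHPG in WT, 3 RNAs were lower at an unadjusted p under 0.05 (Vdac1, Vdac2 and Vdac3, the channels of the outer membrane) and 0 higher, 6 footprint levels were higher and 1 lower, and 6 values of footprints per RNA were higher and 0 lower (median 0.14), where 6.45%, 6.71% and 9.05% of all genes had such a p in either direction. After DHPG in Tsc2+/- 0 RNAs had such a p, 2 footprint levels were higher and 0 lower, and 1 value of footprints per RNA was higher and 1 lower (median 0.026). Between genotypes in vehicle, 3 RNAs were lower and 0 higher, 1 footprint level was higher and 1 lower, and 5 values of footprints per RNA were higher and 0 lower (median 0.11), where 4.9%, 6.55% and 5.73% of all genes had such a p. Between genotypes in DHPG 1 RNA was higher and 1 lower, 0 footprint levels had such a p, and 0 values of footprints per RNA were higher and 1 lower (median 0.013). Genotype in vehicle and DHPG in WT share the WT vehicle libraries, and the interaction in footprints per RNA had a median of -0.16 over the list with 0 genes at an unadjusted p under 0.05. Mpc1, a subunit of the pyruvate carrier, differed in footprints per RNA by 0.37 (SE 0.09, edgeR adjusted p 0.423) between genotypes in vehicle and by 0.33 (SE 0.09, edgeR adjusted p 0.222) after DHPG in WT, and Vdac2 by 0.30 (SE 0.08, edgeR adjusted p 0.181) after DHPG in WT. The Slc25 medians of footprints per RNA in these comparisons, 0.00 and -0.00, lay at those of all genes.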

How the data were processed

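RNA-seq and ribosome profiling libraries were made from pooled, lysed slices. Per the labels and methods, the authors removed adapters and rRNA and tRNA reads, aligned to mm10 with TopHat2, kept uniquely mapped reads, collapsed unique molecular identifiers and deposited expected counts from RSEM, rounded to whole numbers, over RefSeq transcripts for RNA and over trimmed coding sequences for footprints. ComBat and DESeq2 were applied by the authors only after these counts.

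Here counts were tested with edgeR 4.0.16 in R 4.3.3 (TMM, filterByExpr at a minimum count of 10, group and replicate number in the model, 12 libraries per assay, robust quasi-likelihood F test, two-sided). The change in footprints per RNA was the assay by group interaction over 24 libraries. Biological coefficients of variation came to 7.01% (RNA) and 7.04% (footprints). Levels per kb used the RefSeq isoform of GRCm38.p6 with the longest coding sequence, less 60 bases for footprints. The members named were Slc25a23, up to 2 higher and 2 lower members per comparison and readout with the smallest p among those with 1 sign in all 3 contrasts of libraries with equal numbers, and the extremes of level and of footprints per RNA. The 32 other transport genes and the marker lists were written from general knowledge. Members and lists were chosen with earlier results of these data known. Alternatives used DESeq2 1.42.0 and ComBat in sva 3.50.0. Procedures were first tested on simulated counts. The single values of 1 member and those of 1 listed marker are not reported here, and the marker is left out of its list.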

Additional observations from a re-analysis of the deposited data

How the results depend on the processing

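No Slc25 member was called in any of 148 counts over the 21 comparisons that kept all libraries: DESeq2, DESeq2 size factors, no filter on low counts, a stricter adjusted p (0.05), no replicate block, fits of only the groups compared (run for the 4 pairwise comparisons of RNA and of footprints), ComBat then DESeq2 (RNA and footprints), halved footprint counts of replicates 2 and 3, and lysate as a block for footprints per RNA. Of 231 counts that left out a replicate number or, for RNA and footprints, 1 library, 2 held a called member, in both cases Slc25a23 without WT vehicle replicate 2. The range was 0 to 1 for genotype in vehicle and for DHPG in WT in RNA, and 0 to 0 in the other comparisons.

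The Slc25a23 log2 difference in RNA ranged over these left-out libraries from 0.094 to 0.25 for genotype in vehicle and from 0.12 to 0.22 for DHPG in WT, at 0.21 (adjusted p 0.0810) and 0.22 (adjusted p 0.0552) without WT vehicle replicate 2. Its sign turned in differences near 0: DHPG in Tsc2+/- in RNA (-0.039 to 0.064), genotype in vehicle in footprints (-0.16 to 0.048), DHPG in WT in footprints (-0.16 to 0.10), the footprint interaction (-0.19 to 0.023) and the interaction in footprints per RNA (-0.14 to 0.25). In footprints per RNA the range was -0.37 to -0.043 for genotype in vehicle, -0.18 to -0.12 for genotype in DHPG, -0.37 to -0.058 for DHPG in WT and -0.22 to -0.039 for DHPG in Tsc2+/-. With ComBat then DESeq2 the footprint difference for DHPG in WT was 0.000586 in place of -0.01. The cause of these turns was not tested. The median of basal footprints per RNA stayed between 1.14 and 1.21, and was 1.15 with median isoform lengths.

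Replicate numbers were in the model. Deviations from group means of same-numbered libraries correlated at 0.0228 to 0.143 in RNA and 0.0330 to 0.263 in footprints, and 12 of 12 libraries in each assay correlated best with their own number. The study's methods name 3 batches of littermates and correct for batch, without saying which replicate number is which batch, so the pairing by number is not stated outright. With no replicate block, edgeR called 0 members, and Slc25a23 RNA differed by 0.16 (adjusted p 0.9996) for genotype in vehicle and 0.16 (adjusted p 0.971) for DHPG in WT. Slc25a24, Slc25a30, Slc25a34 and Slc25a37 had at most 39 footprint counts in a library, and Slc25a13 at most 42, so small differences in them were not detectable at this depth. Small differences could be missed in other members too. In the simulated counts, log2 changes of 0.5 were called for 71.9% of changed genes in RNA, 70.7% in footprints and 49% in footprints per RNA. A member that was not called was thus not shown to be unchanged.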
